A study of Homo sapiens with 4 samples.

Results

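MicroRNA genes were taken as all genes of biotype miRNA on chromosomes 1 to 22 and X in RefSeq (GRCh38), which gave 1911 of 59094 genes of all types. Each was examined with 1000 bp of sequence on both sides, and a gene was said to carry a mark where at least 1 peak summit of that mark lay in this window. Of the 1911, 1203 lay wholly inside a protein-coding gene. The other 708 comprised 283 inside a long noncoding RNA (lncRNA) gene and 425 inside neither. The gene table used here holds no exons, so intronic and exonic positions within a host gene were not separated.

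The chromatin came from MHCC97L, an established human hepatocellular carcinoma (HCC) cell line, labelled liver for tissue, WT for genotype and untreated. The cells were kept in DMEM with fetal bovine serum, penicillin and streptomycin. Chromatin immunoprecipitation with sequencing (ChIP-seq) had been run with 1 library for each of 3 histone H3 marks, and a library of input chromatin was not analysed here. With 1 library per mark no difference has a replicate check and no test was run. Shares are given with 95% Wilson intervals, which cover counting error only. Sequencing depth is unknown, because the deposited lists hold summits and scores but no read counts. Of 11 genes that mark hepatocytes, 6 carried H3K4me3 with H3K27ac within the gene or 1000 bp of it. These were the genes of the liver transcription factors HNF4A, FOXA1, FOXA2 and CEBPA, and TF and FGB, which encode secreted liver proteins. ALB, APOB and TTR, which also encode secreted liver proteins, were the 3 with no summit of any mark. APOA1 had H3K4me3 alone, and SERPINA1 had H3K27ac and H3K4me1 without H3K4me3. By the same rule 29.5% of all RefSeq genes carried both marks and 57.7% had none. Longer genes offer more sequence in which a summit can fall, and length was not matched.

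MicroRNAs are short RNAs that direct Argonaute proteins to messenger RNAs, chiefly through pairing of the seed near their 5′ end. They are cut from long primary transcripts by DROSHA with DGCR8 and then by DICER1, so the promoter of a microRNA can lie far upstream of its hairpin, and a microRNA inside a gene is often made from the transcript of that host. H3K4me3 is a mark of promoters, H3K27ac of active promoters and enhancers, and H3K4me1 mainly of enhancers, so a window around the hairpin and the start of the host gene answer different questions.

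Mature sequences of microRNAs on which the results below turn are shown first, 5′ to 3′, from RefSeq on GRCh38.p14, with the seed (bases 2 to 8) in capitals. miR-122 is the most liver-specific microRNA, miR-22, miR-192, miR-194 and miR-148a are abundant in liver, miR-21 and miR-210 are often raised in tumours (miR-210 by hypoxia), and let-7i belongs to the let-7 family of growth restrainers. miR-423 and miR-301b are shown because their genes carried both promoter marks.
hsa-miR-122-5p: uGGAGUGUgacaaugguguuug
hsa-miR-21-5p: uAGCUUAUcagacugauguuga
hsa-miR-22-3p: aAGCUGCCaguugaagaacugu
hsa-miR-192-5p: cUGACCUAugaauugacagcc
hsa-miR-194-5p: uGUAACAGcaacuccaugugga
hsa-miR-148a-3p: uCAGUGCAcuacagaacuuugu
hsa-let-7i-5p: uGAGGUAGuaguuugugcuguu
hsa-miR-210-3p: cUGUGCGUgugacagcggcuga
hsa-miR-423-5p: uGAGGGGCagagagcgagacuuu
hsa-miR-301b-3p: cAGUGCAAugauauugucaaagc

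The MIR17 cluster (the miR-17-92 cluster, a target of MYC) and its relative inside MCM7 are shown together because members of the 2 clusters share seeds. miR-17, miR-20a, miR-106b and miR-93 have the seed AAAGUGC, miR-92a and miR-25 have AUUGCAC, and miR-19a and miR-19b have GUGCAAA.
hsa-miR-17-5p: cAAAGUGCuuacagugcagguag
hsa-miR-20a-5p: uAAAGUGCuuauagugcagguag
hsa-miR-106b-5p: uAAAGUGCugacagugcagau
hsa-miR-93-5p: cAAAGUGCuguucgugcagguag
hsa-miR-18a-5p: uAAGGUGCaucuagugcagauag
hsa-miR-19a-3p: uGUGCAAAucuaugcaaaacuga
hsa-miR-19b-3p: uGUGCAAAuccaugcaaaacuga
hsa-miR-92a-3p: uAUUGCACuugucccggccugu
hsa-miR-25-3p: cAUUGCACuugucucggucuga

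Most microRNA genes had no summit close to the hairpin. H3K4me3 lay within 1000 bp of 243 of the 1911 (12.7%, 11.3 to 14.3), H3K27ac of 259 (13.6%, 12.1 to 15.2) and H3K4me1 of 197 (10.3%, 9.02 to 11.8). By the same rule over all 59094 genes the shares were 34.9%, 34.1% and 22.6%, but most of those genes are far longer than a microRNA gene, whose median length was 80 bp. Among the 1196 small nucleolar RNA (snoRNA) genes, which are also short and often lie within hosts, the shares were 9.28%, 9.87% and 6.44%. The interval of the microRNA genes lay above the snoRNA share for each mark.

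Promoter-type marking was the most frequent combination. H3K4me3 and H3K27ac were both present at 164 microRNA genes (8.58%, 7.41 to 9.92), against 29.5% of all genes and 5.52% of snoRNA genes. H3K4me3 without H3K27ac was found at 79. The enhancer-type combination of H3K27ac with H3K4me1 and no H3K4me3 was found at 50 (2.62%), H3K27ac alone at 45 and H3K4me1 alone at 105 (5.49%). All 3 marks were present at 30. No summit was found at 1468 (76.8%, 74.9 to 78.7), against 57.7% of all genes and 82.5% of snoRNA genes. For comparison, a stretch of 80 bp placed at every position of these chromosomes would have a summit within 1000 bp at 2.61% of positions for H3K4me3, 3.71% for H3K27ac and 4.2% for H3K4me1. Many members share summits or lie in clusters, so they are not independent: the windows held 286 distinct H3K4me3 summits, 337 of H3K27ac and 258 of H3K4me1.

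The score of a summit, the −log10 of a p-value or q-value given by the authors, was used within each list only. The median score of the H3K4me3 summits in microRNA windows was 24.3 against 8.23 for the whole list. For H3K27ac it was 14.3 against 8.4, and for H3K4me1 4.58 against 4.58. Summits of H3K4me3 and H3K27ac near microRNA genes therefore ranked above the median of their lists, whereas those of H3K4me1 did not. A summit on the hairpin itself was rare, at 11 genes for H3K4me3 and 10 for each of the other marks. The count just inside the window, at 901 to 1000 bp, was 10, 11 and 12 genes for H3K4me3, H3K27ac and H3K4me1. Just outside, at 1001 to 1100 bp, it was 14, 15 and 14.

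MicroRNA genes inside protein-coding genes carried H3K4me1 more often than the rest, and in this window no difference beyond counting error was seen for H3K4me3 or H3K27ac. H3K4me3 was present at 146 of 1203 inside (12.1%, 10.4 to 14.1) and at 97 of 708 of the rest (13.7%, 11.4 to 16.4), a difference of -1.56 percentage points (95% Newcombe interval -4.79 to 1.49). H3K27ac was present at 163 (13.5%) and 96 (13.6%), with an interval of the difference from -3.28 to 3.09 points. H3K4me1 was present at 150 inside (12.5%, 10.7 to 14.5) and at 47 of the rest (6.64%, 5.03 to 8.72), a difference of 5.83 points (3.12 to 8.39). These intervals treat neighbours as separate genes. The rest held the 46 genes of a single cluster at 19q13, which had no summit of any mark. Positions in protein-coding genes in general had each mark in reach more often than positions elsewhere. For an interval of 80 bp the shares were 5.95% against 2.95% for H3K4me1, 3.88% against 1.7% for H3K4me3 and 4.83% against 2.92% for H3K27ac. The differences depended on the setting. At 5000 bp they were 3.6 points for H3K4me3 and 8.48 for H3K27ac. With scores of at least 10 that of H3K4me1 was 0.1, but only 12 members then had the mark, too few for a difference near 5.83. Of the inside members, 993 lay over 2000 bp from both boundaries of the host. These carried H3K4me3 at 5.84% (4.55 to 7.48), H3K27ac at 8.06% and H3K4me1 at 12.4%. Set against the whole rest, the differences were -7.86, -5.5 and 5.75 points. Only the inside group was filtered in this way. The rest kept its members beside gene starts, so these differences do not compare like positions. The promoter marks inside protein-coding genes were thus concentrated near host boundaries. H3K4me1 alone marked 88 genes inside and 17 in the rest. Within the rest, H3K4me3 was present at 31 of the 283 in lncRNA genes (11%) and at 66 of the 425 in neither (15.5%).

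**Figure D1:**
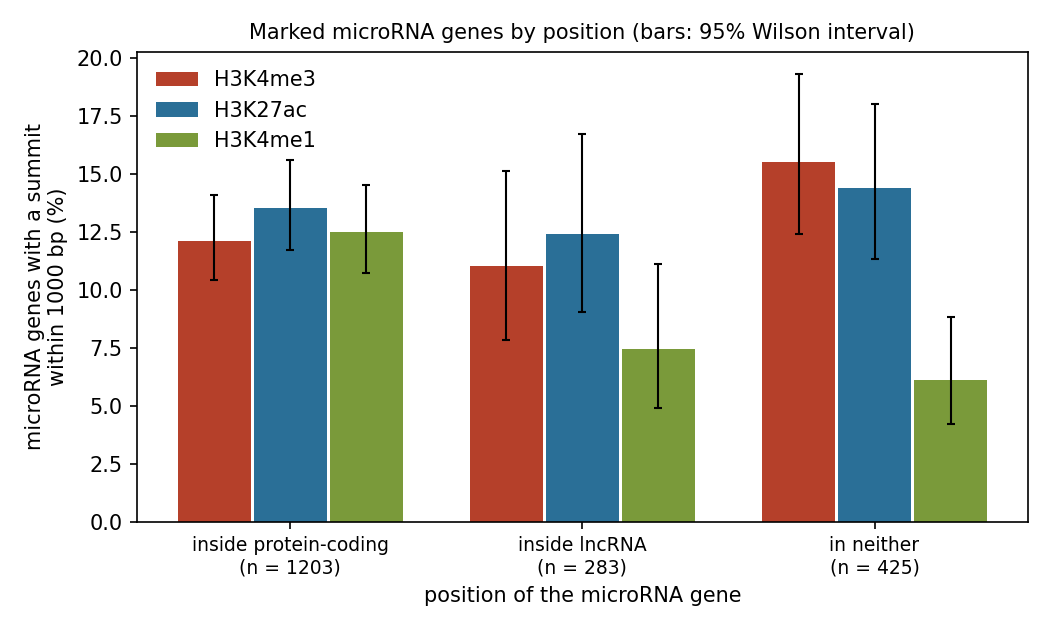
Share of microRNA genes with a summit of each mark within 1000 bp (y axis, percent) for genes inside protein-coding genes (n = 1203), inside lncRNA genes (n = 283) and in neither (n = 425). Bars carry 95% Wilson intervals over genes, with 1 library per mark; H3K4me1 stands highest inside protein-coding genes, at 12.5%.

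Inside protein-coding genes, H3K4me3 and H3K27ac became rarer with distance from the hairpin to the start of the host. A start was listed for the hosts of 1006 of the 1203 members inside protein-coding genes. H3K4me3 was present at 50 of 68 members no more than 1000 bp from that start (73.5%, 62.0 to 82.6). It was present at 40 of 117 at 1001 to 5000 bp (34.2%), at 19 of 245 at 5001 to 20000 bp (7.76%) and at 13 of 576 farther away (2.26%, 1.32 to 3.82). The window overlaps the start itself in the nearest class. H3K27ac fell in the same order, with 69.1%, 19.7%, 9.8% and 7.29%. H3K4me1 did not: it was present at 4.41% of the nearest class and at 13.7%, 18.4% and 11.8% of the others. Most members next to the start of a protein-coding host thus carried promoter marks, and H3K4me1 was most frequent at those 5001 to 20000 bp from it. Inside lncRNA genes, H3K4me3 was present at 11 of 33 members in the nearest class (33.3%, 19.8 to 50.4). That share lay below the one for protein-coding hosts. In the farther classes it was present at 13 of 61, 3 of 45 and 1 of 74.

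**Figure D2:**
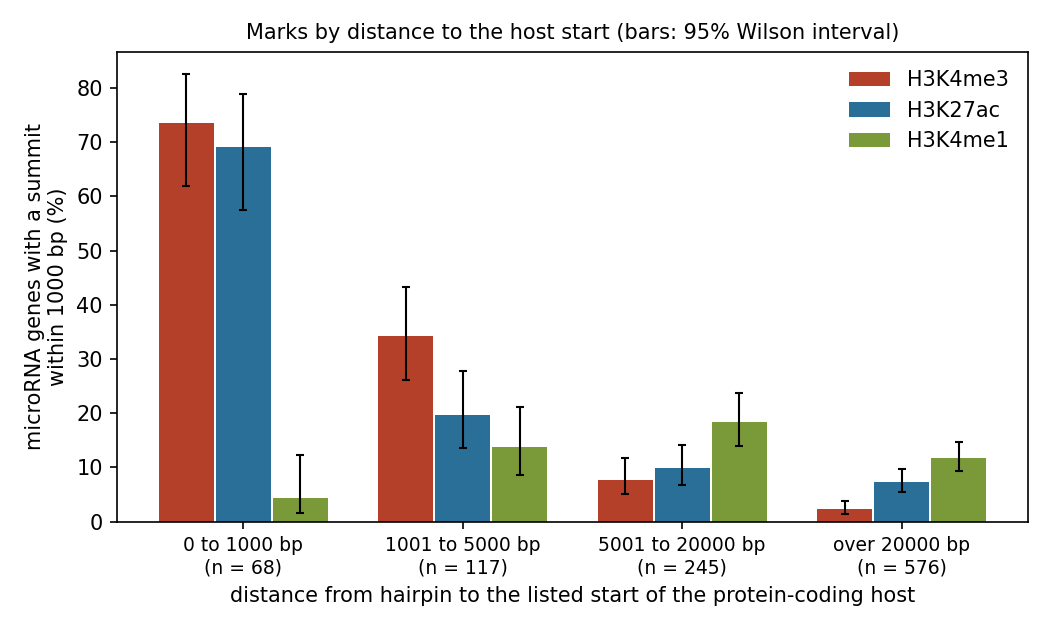
Share of the 1006 microRNA genes with a listed host start that had each mark within 1000 bp (y axis, percent), by distance from hairpin to the start of the protein-coding host (x axis), with 95% Wilson intervals. H3K4me3 falls from 73.5% to 2.26% while H3K4me1 is lowest, at 4.41%, beside the start.

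Hosts were marked at their starts far more often than the microRNAs within them. The 831 members in the sense orientation of a protein-coding host with a listed start lay in 733 hosts, at a median of 26422 bp from the start. H3K4me3 and H3K27ac were both present within 1000 bp of the start of 437 hosts (59.6%, 56.0 to 63.1), against 49.9% of all 15811 listed protein-coding starts. H3K4me3, with or without other marks, was present at the starts of 514 hosts (70.1%), against 58.7% of those starts. Of the 831 members, 343 (41.3%, 38 to 44.7) had no mark of their own while the host start had the pair, and 51 had the pair at both places. The reverse, H3K4me3 beside the hairpin with no mark at the host start, was seen for 8. Of 100 lncRNA hosts with sense members, 27 had the pair at their start (27%, 19.3 to 36.4), against 18.8% of all listed lncRNA starts.

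Antisense members, which cannot be cut from the transcript of the host, had hosts with the pair at 64 of 140 starts (45.7%, 37.7 to 54.0). That share lies below the interval of the sense hosts. At the hairpin itself the sense and antisense members carried H3K4me3 at 99 of 831 (11.9%) and 21 of 160 (13.1%), with intervals that overlap. Over all members outside chromosome 8, for which no starts are listed, 167 lay within 1000 bp of the start of some gene and 102 of them had H3K4me3 (61.1%, 53.5 to 68.1). Of the 1654 farther away 130 did (7.86%, 6.66 to 9.26).

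H3K4me3 and H3K27ac lay more often upstream of hairpins than downstream. Among 1772 members with a listed strand, 384 (21.7%) had H3K4me3 in the 5000 bp upstream of the 5′ end and 260 (14.7%) in the 5000 bp downstream. For H3K27ac the counts were 402 (22.7%) and 280 (15.8%). For H3K4me1 they were 310 (17.5%) and 314 (17.7%). Within 5000 bp H3K4me1 was thus about as frequent on both sides. Over 10000 bp it too had more summits upstream, at a ratio of 1.15 to downstream, against 1.45 for H3K4me3 and 1.29 for H3K27ac. For members in neither kind of host the H3K27ac ratio was 1.05. The nearest H3K4me3 summit was at a median of 19665 bp, with 521 members (27.3%) within 5000 bp and 419 (21.9%) over 100000 bp away.

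**Figure D3:**
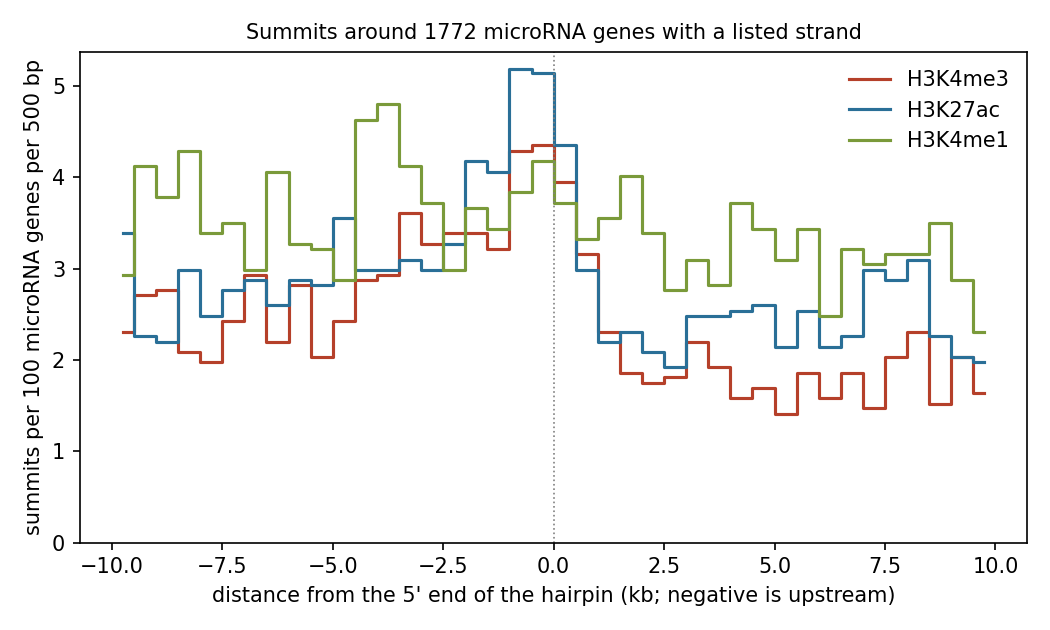
Summits per 100 microRNA genes in bins of 500 bp (y axis) by distance from the 5′ end of the hairpin in kb (x axis, negative upstream) for 1772 genes with a listed strand; clustered genes share summits. H3K4me3 and H3K27ac are higher to the left of the hairpin, with 1028 and 1147 summits in the 10000 bp upstream against 708 and 891 downstream, and H3K4me1 has 1308 against 1137.

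Few liver microRNA genes had promoter marks at the hairpin, as was the case for microRNA genes in general. More had them within 5000 bp upstream, a longer stretch. Of the 30 in the list, 3 had H3K4me3 within 1000 bp, 2 had H3K27ac, 9 had H3K4me1 and 19 had no mark. Over all members the shares were 12.7%, 13.6%, 10.3% and 76.8%. Among the 9, MIR23B, MIR27B and MIR24-1 lie in a single cluster with 2 H3K4me1 summits. With a listed strand there were 29, of which 11 (37.9%) had H3K4me3 in the 5000 bp upstream and 8 (27.6%) had H3K27ac there as well. The same shares over all 1772 members were 21.7% and 16.2%. Their sense hosts carried the pair at 11 of 21 starts, against 59.6% of protein-coding and 27% of lncRNA hosts of sense members in general. The 1 gene with the pair at the hairpin was MIR675, which is processed from the H19 transcript, with scores of 12.8 for H3K4me3, 8.58 for H3K27ac and 2.28 for H3K4me1.

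MIR122 (chr18:58451074-58451158, plus strand, GRCh38), inside the lncRNA gene MIR122HG, had no mark in its window. Its nearest H3K4me3 summit lay 75601 bp away, its nearest H3K27ac summit 33941 bp and its nearest H3K4me1 summit 3951 bp. The start of MIR122HG, 4811 bp upstream, had no mark within 1000 bp either. Around the gene of the main liver microRNA the lists thus held a single low H3K4me1 summit, with a score of 3.01, within 10 kb. MIR194-1, in IARS2, had no mark in its window but H3K4me3 of 10.5 at 3723 bp upstream and H3K27ac of 12.5 at 3692 bp. MIR148A (chr7:25949919-25949986, minus strand) had H3K4me3 of 16.5 at 1068 bp upstream, just beyond the window, and no H3K27ac for 100320 bp.

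MIR22 (chr17:1713903-1713987, minus strand) lies in the lncRNA gene MIR22HG, 2223 bp from its start, and its own window held only H3K4me1 of 3.56. The MIR22HG start had H3K4me3 of 87.3 and H3K27ac of 159, the latter above every H3K27ac score found in a microRNA window. MIR192 (chr11:64891137-64891246) and MIR194-2 (chr11:64891355-64891439), both on the minus strand, had only H3K4me1 in their windows, with best scores of 8.9 and 3.56. The start of their shared host MIR194-2HG, 2203 and 2010 bp away, had H3K4me3 of 49.5 and H3K27ac of 85.2. MIR26B, in CTDSP1, had H3K4me3 of 54.9 at 2281 bp upstream and H3K27ac of 40.3 at 2647 bp. Within 10 kb, MIR122 thus had neither promoter mark, and MIR22, MIR192, MIR194-2 and MIR26B had both.

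Promoters of 3 host genes are printed because their marks differed most plainly: MIR22HG had both promoter marks at high scores, MIR17HG had H3K4me3 of 4.36 near the start and stronger summits inside the gene, and MIR122HG had none. Each is the RefSeq sequence from 250 bases before to 50 after the listed start, 5′ to 3′ on the gene's strand, with CG dinucleotides in capitals. MIR22HG is chr17:1716161-1716460 (minus strand), MIR17HG chr13:91347437-91347736 (plus) and MIR122HG chr18:58446013-58446312 (plus), all on GRCh38.p14.
MIR22HG: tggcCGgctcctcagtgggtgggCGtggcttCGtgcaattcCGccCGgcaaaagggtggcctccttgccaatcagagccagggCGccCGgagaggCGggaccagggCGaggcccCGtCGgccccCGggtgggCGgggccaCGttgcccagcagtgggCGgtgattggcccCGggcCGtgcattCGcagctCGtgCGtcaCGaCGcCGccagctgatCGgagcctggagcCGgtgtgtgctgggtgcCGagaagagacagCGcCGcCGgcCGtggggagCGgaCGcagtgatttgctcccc
MIR17HG: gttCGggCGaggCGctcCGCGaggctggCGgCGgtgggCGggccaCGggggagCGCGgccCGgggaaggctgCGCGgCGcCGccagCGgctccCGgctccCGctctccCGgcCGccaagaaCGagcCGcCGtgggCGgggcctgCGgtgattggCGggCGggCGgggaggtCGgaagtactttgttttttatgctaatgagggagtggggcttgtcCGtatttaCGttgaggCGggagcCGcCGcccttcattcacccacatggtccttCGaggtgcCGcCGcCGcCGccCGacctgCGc
MIR122HG: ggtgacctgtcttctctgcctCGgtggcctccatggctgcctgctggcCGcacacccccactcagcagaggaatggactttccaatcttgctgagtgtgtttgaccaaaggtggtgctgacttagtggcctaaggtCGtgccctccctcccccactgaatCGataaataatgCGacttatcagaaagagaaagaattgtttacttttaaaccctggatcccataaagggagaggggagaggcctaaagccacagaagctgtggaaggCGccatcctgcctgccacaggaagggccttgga

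These promoters held 32, 42 and 6 CG dinucleotides. Over all 27195 listed starts the median was 14, with 27 at starts that had H3K4me3 and H3K27ac within 1000 bp and 4 at starts without a mark. Starts of hosts with sense microRNAs had a median of 29 where the pair was present and 13.5 where no mark was. Some host starts with few CG dinucleotides had the pair. MIR194-2HG held 11, with H3K4me3 of 49.5 and H3K27ac of 85.2, and the host gene MIR193BHG held 2, with 42.7 and 25.9. The hexamer CACGTG, the same on both strands and the core of the sequence that MYC with MAX can bind, occurred in 7.45% of all listed promoters. It was found 1 time in the MCM7 promoter and not in these 300 bases of MIR17HG, MIR22HG or MIR122HG.

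At the MIR17 cluster the strongest promoter marks lay inside the host gene. MIR17 (chr13:91350605-91350688, plus strand), MIR18A and MIR19A had no mark within 1000 bp. MIR20A, MIR19B1 and MIR92A1 shared 1 weak H3K4me3 summit with a score of 3.47. The strongest H3K4me3 summit, of 39.7, stood 1364 bp upstream of MIR17 and the only H3K27ac summit, with a score of 18, at 1412 bp. The listed start of MIR17HG is 2918 bp upstream of MIR17, and a weak H3K4me3 summit of 4.36 lay 352 bp before that start. No H3K4me1 summit lay within 10 kb of MIR17. This absence was not particular to the cluster, since none of the 40 microRNA genes on chromosome 13 had H3K4me1. The H3K4me1 summit nearest to the MIR17HG start was 2429410 bp away.

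The paralogous clusters differed. MIR106B (chr7:100093993-100094074, minus strand), MIR93 and MIR25, inside the helicase gene MCM7, had only an H3K4me1 summit of 2.59 in their windows. The MCM7 start, 7323 bp from MIR106B, had H3K4me3 of 93.8 and H3K27ac of 114. The MIR106A to MIR363 cluster on chromosome X had no summit in any window of its 6 members. Of the 15 genes of the 3 clusters, 9 had H3K4me3 in the 5000 bp upstream and 6 of them H3K27ac as well. These come from 2 loci, so the counts are not 9 separate observations.

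MIR21 (chr17:59841266-59841337, plus strand) lies inside the protein-coding gene VMP1, 918 bp from its end, and had no mark within 1000 bp. H3K4me3 of 124 stood 2848 bp upstream and H3K27ac of 148 at 2915 bp, with a second H3K27ac summit of 102 at 4119 bp. The listed start of VMP1, 133612 bp away, had H3K4me3 of 108 and H3K27ac of 49.8. Promoter marks thus stood both at the start of the host and close upstream of the microRNA. H3K4me1 summits flanked the site close to MIR21, from 4894 bp upstream (10.6) and from 3752 bp downstream (5.68) outward. H3K27ac was not confined to these places, with 38 summits in VMP1 or within 1000 bp of it. Those between the VMP1 start and MIR21 included scores of 128 at 85237 bp and 118 at 54847 bp upstream of MIR21.

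**Figure D4:**
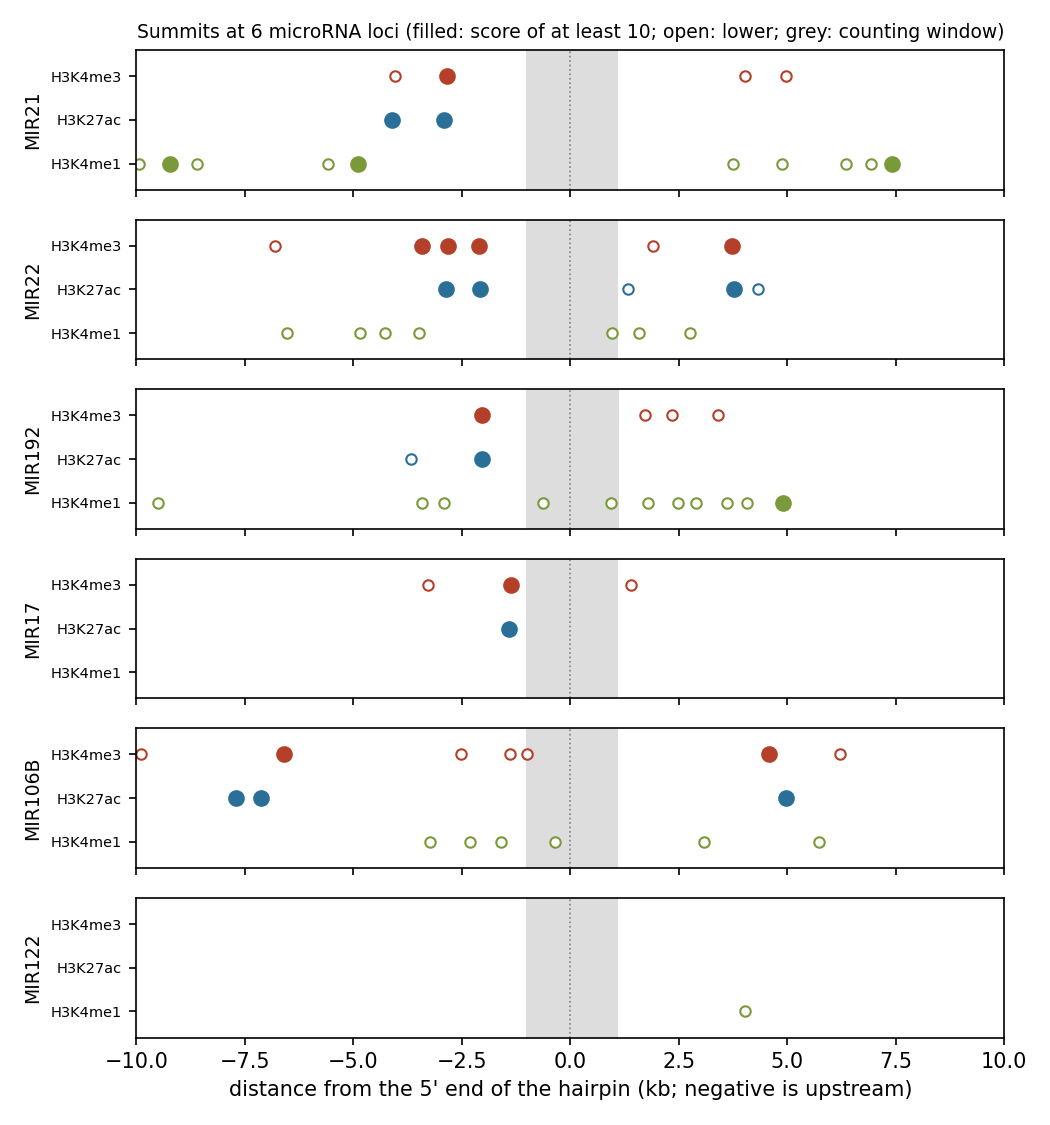
Summits of each mark (rows) by distance from the 5′ end of the hairpin in kb (x axis, negative upstream) at MIR21, MIR22, MIR192, MIR17, MIR106B and MIR122; filled points have a score of at least 10 and the grey band is the window of 1000 bp on both sides of the hairpin. The filled H3K4me3 and H3K27ac points upstream of MIR21, MIR22, MIR192 and MIR17 lie 1364 to 4119 bp away, outside the band, and MIR122 has 1 open H3K4me1 point.

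Of the 30 microRNA genes tied to tumour growth, 4 had H3K4me3, 4 had H3K27ac, 3 had both and 21 had no mark, near the 12.7%, 13.6%, 8.58% and 76.8% of all members. MIR210, made under hypoxia, had H3K4me3 of 20.8 and H3K27ac of 26.8, with the start of MIR210HG 259 bp away. MIR423, in NSRP1, had 60.8 and 44.8, and MIR301B, outside annotated hosts, had 42.7 and 8.58. MIR155 and MIR221 had none. MIR155, a microRNA of activated lymphocytes, had its nearest H3K4me3 summit 33144 bp away. MIR221, which targets the cell-cycle inhibitor p27, had H3K27ac of 3.49 at 2069 bp upstream. Farther upstream, near the MIR222HG start 24001 bp away, it had H3K4me3 of 67.7 at 22762 bp and H3K27ac of 45.6 at 25340 bp. With strand listed, 13 of 29 (44.8%) had H3K4me3 in the 5000 bp upstream and 11 (37.9%) had H3K27ac as well, against 21.7% and 16.2% of all members. Clustered genes share summits here, such as MIR301B with MIR130B. The MIR23A cluster was also among these, with H3K4me3 of 11.7 at 2144 bp and H3K27ac of 59.0 at 3755 bp.

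Of the 34 genes described as lost or growth-restraining in cancer, 4 had H3K4me3, 1 had H3K27ac, none had both and 26 had no mark (76.8% over all members). In the 5000 bp upstream, 9 of the 31 with a listed strand had H3K4me3 (29%) and 5 had H3K27ac as well (16.1%), against 21.7% and 16.2% of all members. MIR34A, a target of p53, had no mark, while the start of MIR34AHG, 30561 bp away, had H3K4me3 of 39.7 and H3K27ac of 27.3. MIR34B and MIR34C had no mark. MIR375 and MIR203A had H3K4me3 of 4.36 and 5.58. MIR29A had H3K27ac of 18.4 and H3K4me1 of 5.91 without H3K4me3, whose nearest summit was 7689 bp away. MIR15B and MIR16-2, in SMC4, had H3K4me3 of 85.1 at 3122 and 3279 bp upstream.

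Of the 12 let-7 genes, MIRLET7I had both promoter marks, with 108 for H3K4me3 and 75.8 for H3K27ac. MIRLET7A1 and MIRLET7D had no mark of their own, while the start of MIRLET7A1HG, 9699 bp from MIRLET7A1, had H3K4me3 of 56.5 and H3K27ac of 89.3. In all, 8 of the 12 had no mark. By seed, the 14 genes with GAGGUAG had a mark at 4, and the 8 with AAAGUGC at 3, against 23.2% of all members. The 6 with GGGGCGG all had a mark, 4 of them MIR3180 copies. The 12 genes with AAGUGCU (the miR-302, miR-372 and miR-520 group of stem cells and placenta) and the 7 with ACAUUCA (miR-181) had none.

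The 5 genes of the miR-200 family, which is typical of epithelial cells, all had H3K4me3 and H3K27ac in the 5000 bp upstream, from 2 loci. Over all members with a listed strand 21.7% had H3K4me3 there and 16.2% had both. MIR200C and MIR141 had weak H3K4me3 of 6.84 in their windows, H3K4me3 of 10.3 at 1968 bp upstream of MIR200C and H3K27ac of 107 at 1918 bp. MIR200A and MIR429 had no mark in their windows, and MIR200B had H3K27ac of 3.49. Upstream of MIR200B the best scores were lower than at MIR200C, with H3K4me3 of 7.29 at 1132 bp and H3K27ac of 5.52 at 1842 bp.

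Lists typical of other tissues were read against the 76.8% of all members that had no mark and the 12.7% that had H3K4me3. None of the 9 muscle genes (MIR1-1, MIR1-2 and MIR133A1 among them), the 10 blood genes (MIR142, MIR150 and MIR223 among them) or the 8 stem cell genes (MIR302A, MIR302B and MIR302C among them) had a summit in its window. None of these with a listed strand had H3K4me3 in the 5000 bp upstream. Among 11 endothelial and stromal genes 9 had no mark, MIR143, MIR145 and MIR199A1 among them, and 1 had H3K4me3, shares near those of all members. The 2 largest clusters were also empty. The 19q13 cluster, of placenta, counted 46 genes from MIR512-1 to MIR519A2, and the 14q32 cluster, imprinted, 42 from MIR379 to MIR656; neither had a summit of any mark.

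Of the 20 neuronal genes 14 had no mark, 6 had H3K4me3 (12.7% over all members), 2 had H3K27ac and none had H3K4me1. MIR153-1, in PTPRN, had H3K4me3 of 13.1 and H3K27ac of 7.63, and MIR219A1 had 35.3 and 14.3. MIR132 and MIR212 shared H3K4me3 of 34.9, MIR137 had 21.5 and MIR9-2 had 13.1 on the hairpin, all without H3K27ac in the window. MIR124-1, MIR124-2 and MIR124-3 had no mark. The 6 genes with H3K4me3 thus rest on 5 loci.

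**Figure D5:**
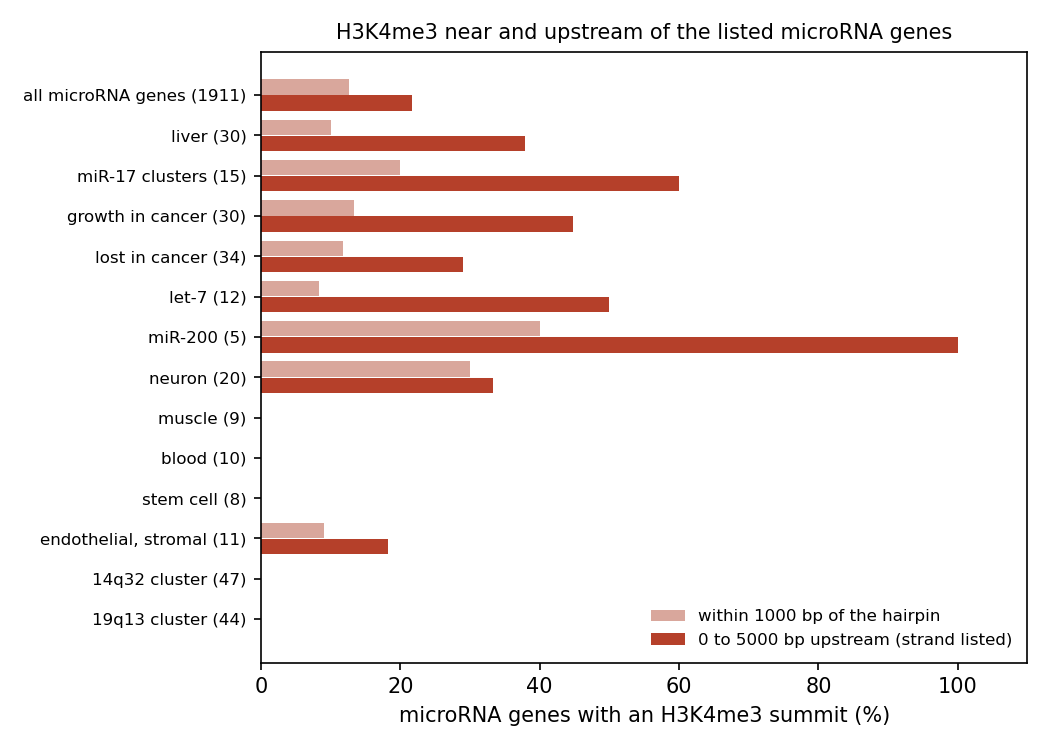
Share of microRNA genes with an H3K4me3 summit (x axis, percent) within 1000 bp of the hairpin (pale bars) and in the 5000 bp upstream among genes with a listed strand (dark bars), for all microRNA genes and each list (y axis, number of genes in brackets). The upstream share is 21.7% for all, 37.9% for liver and 44.8% for growth in cancer, and muscle, blood, stem cell, 14q32 and 19q13 genes stand at 0.

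The members with the highest scores were mostly outside the lists. For H3K4me3 the top was MIR3678 (134), followed by MIR1204 (125), MIR636 in the splicing-factor gene SRSF2 (115) and MIR3913-1 with MIR3913-2, which share a summit of 113. MIRLET7I (108), MIR4258 in the cell-cycle gene CKS1B (105), MIR6516 in SEC14L1 (104), MIR4754 (101) and MIR8072 in SBNO1 (99.4) completed the 10. For H3K27ac the highest were MIR12119 in the splicing gene BUD31 (156) and MIR5188 (148). MIR5188 had its summit on the hairpin and no H3K4me3 within 1000 bp, the nearest being 1053 bp away. They were followed by MIR4492 in BCL9L (134), MIR4738 (118), MIR4754 (116), MIR8072 (113), MIR636 (99.0), MIR3610 (97.5), MIR484 (96.5) and MIR4444-1 (94.5).

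For H3K4me1 the highest scores belonged to MIR3680-1 (17), MIR6854 in TBC1D2 (16) and MIR3680-2 (14.4). MIR4435-2 (14.4), MIR4472-2 (12.6), MIR4648 (12.4), MIR4669 in the nuclear-receptor gene RXRA (12.1), MIR549A (11.5), MIR7854 (11.1) and MIR6870 in the Notch-ligand gene JAG1 (10.6) followed. MIR4435-2 also had H3K27ac of 59.1 without H3K4me3. MIR3680-1 and MIR3680-2 are near-identical copies, as are the MIR3180 copies on chromosome 16, of which MIR3180-1 to MIR3180-5 all had H3K4me3. No source used here says how reads that match several copies were placed, so summits at single copies are uncertain.

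Clusters were counted by joining genes less than 10000 bp apart, which gave 1595 units. Of the 155 clusters of 2 or more genes, holding 471 members, 35 had H3K4me3 (22.6%, 16.7 to 29.8), against 188 of 1440 single genes (13.1%, 11.4 to 14.9). A cluster covers more sequence than a single gene. The most summits of the 3 marks together were found at MIR5587 with MIR3176 in the protease gene CAPN15, with 14. MIR192 with MIR194-2, MIR6750 and MIR6749, MIR4754 with MIR10394, and MIR5090 with MIR4467 in LRWD1 had 8 each, and MIR6721 with MIR6833 had 7.

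Marked microRNAs had richer G and C content and higher registry numbers. The median hairpin GC content was 65.0% for genes with H3K4me3 and H3K27ac and 50% for genes with no mark, over 1558 members with a hairpin sequence. With the 1558 split into 4 nearly equal classes of rising GC content, H3K4me3 was present at 5.64%, 7.2%, 11.6% and 28.2% (24 to 32.9). Genes with registry numbers of 1000 or more, which are the later entries, carried any mark at 332 of 1273 (26.1%, 23.7 to 28.6), and those with lower numbers at 111 of 638 (17.4%, 14.7 to 20.5). The lower numbers include nearly all of the 47 genes listed for 14q32 and the 44 for 19q13, none of them marked. Their part in the difference was not tested, and the intervals treat these neighbours as separate genes. By chromosome, H3K4me3 ranged from 1 of 35 genes on chromosome 18 (2.86%) to 18 of 82 on chromosome 16 (22%), where the MIR3180 copies lie, and chromosome X had 7 of 118 (5.93%). H3K4me1 ranged from 0 of 40 on chromosome 13 and 1 of 69 on chromosome 10 (1.45%) to 20 of 82 on chromosome 7 (24.4%).

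Most genes of the microRNA machinery had both promoter marks. Of 22, 20 had H3K4me3 and H3K27ac in the gene or within 1000 bp, against 29.5% of all genes, and 16 of the 19 with a listed start had both there, against 49.9% of protein-coding starts. These 22 are all protein-coding, whereas the 29.5% covers genes of all types and lengths. The comparison at starts is thus the closer one. DROSHA, DGCR8, XPO5 (the exporter of precursors) and DICER1 had H3K4me3 at their starts of 55.8, 47.2, 69.3 and 24.2, and H3K27ac of 20.1, 38.8, 23.2 and 28.7. The exceptions to the count in the gene were the let-7 inhibitors: LIN28A had no summit and LIN28B had H3K27ac of 6.51 without H3K4me3. At listed starts the pair was missing at LIN28B, TNRC6C and DDX5. TNRC6C had its nearest H3K27ac summit 1244 bp from the start, and DDX5 its nearest H3K4me3 summit 1685 bp away. Of 41 lncRNA genes named as microRNA hosts, 37 had a listed start, 11 of these had the pair there and 19 had no mark there. Over all listed lncRNA starts 18.8% had the pair.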

How the data were processed

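Summit lists for H3K4me3, H3K27ac and H3K4me1 (1 library each) were used as deposited. MACS2, Bowtie, deepTools and Picard were run on hg38, per the submitters' processing notes, which name no versions or settings. The deposited score is the authors' −log10 p-value or q-value. No source used here says which of them it is, or whether the input served as control. It depends on depth and was not compared between marks. Positions were shifted to 1-based coordinates, and summits off chromosomes 1 to 22 and X were left out (185, 273 and 61 for H3K4me3, H3K27ac and H3K4me1).

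Summits were joined to RefSeq genes, strands and starts (GRCh38.p14, the coordinates of hg38) with Python 3.11.15, numpy 2.4.6 and pandas 2.3.3, and plotted with matplotlib 3.10.9. Of 1911 members, 1772 had a strand and 1734 a mature sequence. A start is 1 position per gene, listed for 15811 of 19970 protein-coding genes and for none on chromosome 8. Counting was tested on simulated data with planted summits.

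The members and lists were chosen with earlier results of these data known. Named were MIR122, MIR21, the 6 MIR17HG members, the first 3 members of each list with H3K4me3 and H3K27ac and the first 3 unmarked, the 10 highest scores per mark and the 5 clusters with most summits; other microRNAs, the upstream counts and the hepatocyte markers were added after values were seen. Alternatives were other windows (500, 2500 and 5000 bp), score minimums (5 and 10), any overlap with a host, boundaries left out, and clusters or copies counted once.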

Additional observations from a re-analysis of the deposited data

How the results depend on the processing

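Each share was recomputed with other windows and score minimums, and with clusters or numbered copies counted once; counting units once moved no overall share by over 1.5 times. With a window of 500 bp the shares were 8.01% for H3K4me3, 8.79% for H3K27ac, 4.5% for both and 1.26% for H3K27ac with H3K4me1 and no H3K4me3. With 2500 bp they were 20%, 21.5%, 15.3% and 5.02%, with H3K4me1 at 17.9%, and with 5000 bp 27.3%, 29.8%, 22.7%, 6.33% and 26.4%. These move by construction, since a wider window holds more summits. With scores of at least 5, H3K4me1 was at 5.44% and the enhancer-type combination at 1.57%; with at least 10 they were 0.628% and 0.209%, and H3K27ac was at 9.0%. The share inside protein-coding genes minus that of the rest became 3.6 percentage points for H3K4me3 at 5000 bp. It became -7.86 without inside members within 2000 bp of a host boundary, with the rest left unfiltered. For H3K27ac it became 3.2 at 2500 bp, 8.48 at 5000 bp and -5.5 without those members. For H3K4me1 it became 8.91, 12.7 and, with scores of at least 10, 0.1, where only 12 members had the mark. The cause of the changes with window was not tested. The liver list had both promoter marks at 1 gene in the main window and at 8 with 2500 bp, and the MIR17 clusters at 0 and 6. No paired analysis was possible because each mark had 1 library. Depth per library is unknown, no library was replicated, and an unmarked gene may lie below the calling threshold.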
